A study of Mus musculus with 88 samples.

Results

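The genes examined here are the 8 enzymes and cofactors that write, copy and remove DNA methylation: Dnmt1, Uhrf1, Dnmt3a, Dnmt3b, Dnmt3l, Tet1, Tet2 and Tet3. They were chosen by name from 54633 genes with an identifier in the bulk tables, and all 8 were measured in every data set and passed the filters on low values. The study asked how loss of subunits of Polycomb repressive complex 2 (PRC2), which trimethylates lysine 27 of histone H3, alters the exit of mouse embryonic stem cells (ESCs) from pluripotency. MTF2 defines the PRC2.1 form of the complex, JARID2 the PRC2.2 form, and EED is part of the core of both. RNA was measured in 88 samples.

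In the directed differentiations, WT, Mtf2 null and Jarid2 null ESCs labelled strain E14 and kept in serum with LIF were harvested undifferentiated and after 5, 24 and 48 h of monolayer culture. The mesoderm series received Activin A, BMP4, CHIR99021 and FGF2, followed by A-83-01 with BMP4, and the endoderm series Activin A, CHIR99021 and FGF2, followed by Activin A with DM3189. Each group held 2 libraries, which gave 24 per series and 48 in all. Bulk embryoid bodies (EBs) are aggregates that differentiate without added factors. Lines labelled Mtf2 null, Jarid2 null and Eed null were each set beside their background-matched WT line, Pcl1-3 WT, JM8 and J1. They were sampled at days 0, 2, 4 and 7, with 1 sample per line and day, 24 in all. The day 0 columns are named mono, read here as monolayer, and those of later days eb. Day 0 and later days may therefore also differ in the form of culture. Deposited columns of the same line and day were added together, so they were not used as replicates. In the single-cell EBs, live cells labelled E14 of 4 genotypes (WT and the Mtf2, Jarid2 and Eed nulls) were sorted into 384-well plates at days 0, 4, 7 and 10, with 1 library per genotype and day, 16 in all. Mtf2 null is a homozygous gene trap, and every mutant is 1 line. The study's methods derive these mutants from other WT lines than E14, so in the directed and single-cell data genotype and line cannot be told apart. The duplicates of the directed series are technical in the study's account, so that p-values there measure the spread between libraries, not between cultures.

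The directed libraries held 9111880 to 16898264 estimated counts in the mesoderm series and 9889592 to 16372804 in the endoderm series, the bulk EB samples 4071242 to 30457254 reads, and the single-cell libraries 202 to 347 cells and 1339722 to 3889890 unique molecular identifiers (UMIs). Mtf2 itself checked the directed labels, at 30.2 to 38.2 CPM (counts scaled to library size) in the 16 Mtf2 null libraries against 206 to 509 CPM in the 16 WT libraries, whereas Jarid2 RNA overlapped between Jarid2 null (189 to 622 CPM) and WT (307 to 661 CPM) and decided nothing. In the single cells, the targeted gene was low in every mutant library, with Mtf2 at 53.7 to 61.1 UMI CPM in Mtf2 null against 365 to 793 in WT, Jarid2 at 115 to 185 in Jarid2 null against 215 to 594, and Eed at 1.33 to 11.5 in Eed null against 115 to 478. The bulk EB labels did not pass this check. With the Eed null label, Eed stood at 58.2 to 206 CPM, and in J1 at 52.5 to 246 CPM, and at day 0 Mtf2 was 317 CPM in the library labelled Mtf2 null but 127 CPM in that labelled Jarid2 null, so the bulk EB comparisons of a mutant label with its WT line are given by label and also without day 0. The Eed ranges overlap and are not split by day here, so leaving out day 0 does not settle the Eed null label. The undifferentiated libraries of the mesoderm and endoderm series were closer across series at the same replicate number than at different numbers (correlation of their differences 0.52 to 0.63 over 8944 genes), so they are not independent samples of each other.

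DNA methylation is the addition of a methyl group to cytosine, in mammals mostly where a C is followed by a G (CpG). DNMT3A and DNMT3B place it on unmethylated DNA, and DNMT3L, which has no catalytic activity, stimulates both. UHRF1 binds hemimethylated DNA after replication and brings DNMT1, the maintenance methyltransferase, which copies the mark to the new strand. TET1, TET2 and TET3 oxidise methylcytosine as a first step of its removal. Naive ESCs are known for low global methylation with high Tet1 and Tet2, and the formative epiblast for high Dnmt3a and Dnmt3b as methylation rises.

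Sequences before an annotated start of 3 of these genes are shown because Dnmt3b, Dnmt3l and Tet2 are the members whose levels moved most often over time or between genotypes, and because these windows differ in CpG content, the letters this enzyme system acts on. Each is the 150 bases before a RefSeq start on GRCm38.p6, 5′ to 3′ on the gene's strand, with CpG in capitals. They lie at chr10:78042137-78042286 (plus strand) for Dnmt3l, chr2:153649299-153649448 (plus strand) for Dnmt3b and chr3:133544391-133544540 (minus strand) for Tet2. The Dnmt3b window lies outside the span of the gene in the GENCODE annotation, and those of Dnmt3l and Tet2 lie within theirs, which reach further 5′ than the RefSeq starts used. Dnmt3l has 3 RefSeq starts, with 5, 4 and 3 CpGs in the 250 bases before them, and the first of them on the strand is shown.
Dnmt3l: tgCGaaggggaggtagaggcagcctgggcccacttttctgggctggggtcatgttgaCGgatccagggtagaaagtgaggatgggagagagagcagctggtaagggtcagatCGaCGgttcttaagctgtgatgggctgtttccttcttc
Dnmt3b: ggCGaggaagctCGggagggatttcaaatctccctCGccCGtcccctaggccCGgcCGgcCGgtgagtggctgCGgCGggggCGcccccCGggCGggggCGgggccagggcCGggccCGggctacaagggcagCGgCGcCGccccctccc
Tet2: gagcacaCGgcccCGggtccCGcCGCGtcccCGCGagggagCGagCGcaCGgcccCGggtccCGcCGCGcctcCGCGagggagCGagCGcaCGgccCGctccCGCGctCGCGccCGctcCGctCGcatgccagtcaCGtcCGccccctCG
Dnmt3l held 4 CpGs, which was the median of all such windows and was reached or passed by 51.3% of them. Dnmt3b held 18, reached by 9.20% of windows, and Tet2 held 30, reached by 0.347%. The E2F-type motifs TTTCCCGC and TTTGGCGC, searched on both strands of the 250 bases before each start, were found in 0 of the 8 members, in 4 of 11 S phase genes with a window and in 1.3% of 32851 windows.

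WT cells showed the course of these genes over the first 48 h of directed differentiation. Dnmt3b moved at most steps, up by 5 h, down by 24 h and up again by 48 h, and Tet2 fell after 5 h. A change was called at an adjusted p under 0.001 together with a log2 fold change over 1 in size, in edgeR's quasi-likelihood test with Benjamini-Hochberg adjustment over all 18361 genes tested in the mesoderm series and 19261 in the endoderm series. Values are CPM after TMM scaling and are compared only within a gene.

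Dnmt3b (ENSMUSG00000027478, chr2:153649450-153687730, plus strand), a de novo methyltransferase and a formative epiblast marker, stood in the WT mesoderm series at 104 and 86.3 CPM undifferentiated, 189.8 and 190.3 at 5 h, 56.7 and 60.3 at 24 h and 169 and 153 at 48 h. No time point overlapped with the one before it. The log2 fold changes were 1.00 ± 0.11 (SE) to 5 h, −1.70 ± 0.11 to 24 h and 1.46 ± 0.11 to 48 h, each called (edgeR quasi-likelihood, adjusted p = 2.9e-06, 5.6e-09 and 1.2e-08). The first of these sat at the fold limit and was 0.88 without WT undifferentiated replicate 2. In the WT endoderm series the gene stood at 100.5 and 78.5 CPM undifferentiated, 163 and 155 at 5 h, 78.3 and 79.2 at 24 h, and 633 and 483 at 48 h. The last step was the largest of any member in WT, 2.83 ± 0.16 on the log2 scale or 7.09-fold (edgeR quasi-likelihood, adjusted p = 1.2e-10). The step of 0.83 ± 0.16 to 5 h missed the fold limit. The change of −1.01 ± 0.15 from 5 to 24 h was called, but lost its call without any 1 of the 4 WT libraries concerned, at −0.98 to −1.03.

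Dnmt3a (ENSMUSG00000020661, chr12:3806007-3914443, plus strand), the other de novo methyltransferase, was not called at any step of the WT mesoderm series, where both 24 h libraries were lowest at 66.7 CPM and the other 6 lay between 79.3 and 117 CPM. In the WT endoderm series it went from 82.5 and 83.2 CPM at 24 h to 247 and 206 CPM at 48 h, beyond all earlier libraries, a log2 fold change of 1.45 ± 0.12 (edgeR quasi-likelihood, adjusted p = 1.6e-08). At that step the summed level of 7 naive pluripotency markers (Esrrb, Nanog, Klf4, Tbx3, Zfp42, Tfcp2l1 and Klf2) went from 1891 to 1893 CPM to 551 to 564 CPM, and that of 5 formative markers other than Dnmt3b from 19.6 to 20.8 CPM to 120 to 162 CPM. Of 5 definitive endoderm markers (Foxa2, Sox17, Cxcr4, Gsc and Hhex), 4 were measured and summed to 5.0 to 8.4 CPM in WT at every time of the endoderm series, so these libraries do not carry an endoderm signature and the series is named here by its treatment.

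Tet2 (ENSMUSG00000040943, chr3:133463679-133545139, minus strand) stood in the WT mesoderm series at 381 and 328 CPM undifferentiated, 388 and 411 at 5 h, 143 and 153 at 24 h and 139 and 133 at 48 h. The drop lay between 5 and 24 h, with no overlap (log2 fold change −1.43 ± 0.13, edgeR quasi-likelihood adjusted p = 2.0e-07). In the WT endoderm series it fell at the same step by 1.35 ± 0.10 on the log2 scale and again from 167 and 154 CPM at 24 h to 59.4 and 61.8 CPM at 48 h, by 1.40 ± 0.11 (edgeR quasi-likelihood, adjusted p = 5.4e-09). Tet1 (ENSMUSG00000047146, chr10:62804570-62908996, minus strand), the most abundant dioxygenase of naive cells, showed −0.61 ± 0.14 and −0.55 ± 0.14 at the step to 24 h, neither past the fold limit. Tet3 (ENSMUSG00000034832, chr6:83362373-83459084, minus strand), known from the zygote and from differentiated tissue, stayed between 18.7 and 33.3 CPM in all 16 WT libraries.

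Dnmt3l (ENSMUSG00000000730, chr10:78041947-78063622, plus strand) went in the WT mesoderm series from 195 and 193 CPM at 5 h to 81.8 and 83.1 at 24 h, a called fall of 1.23 ± 0.14 on the log2 scale (edgeR quasi-likelihood, adjusted p = 1.9e-06), and back to 170.3 and 127 CPM at 48 h. The maintenance pair moved together at the first step. Dnmt1 (ENSMUSG00000004099, chr9:20907209-20959888, minus strand) went from 296 and 207 CPM to 442 and 475 CPM by 5 h in the WT mesoderm series, and Uhrf1 (ENSMUSG00000001228, chr17:56303321-56323486, plus strand) from 354 and 258 to 575 and 601 CPM. Their log2 fold changes of 0.87 ± 0.13 and 0.94 ± 0.13 passed the p limit (edgeR quasi-likelihood, adjusted p = 4.0e-05 and 2.0e-05) but not the fold limit. The summed level of 14 S phase genes stood at 2838 to 3423 CPM undifferentiated and 4220 to 4322 CPM at 5 h in the same libraries, and its part in the result was not tested.

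Counted over the 3 WT steps, members were called 1, 3 and 1 times of 8 in the mesoderm series, where 4.13%, 4.41% and 4.16% of all genes were called, and 0, 2 and 3 times in the endoderm series (2.10%, 2.5% and 3.88%). At the WT endoderm step to 5 h, where the edgeR quasi-likelihood test called 0, 3 members had an unadjusted p under 0.05. Over both series and 3 genotypes, Dnmt3b was called at 16 of 18 steps, up at 11 and down at 5. Tet2 was called at 9, each time down, Dnmt3l at 5, Dnmt3a at 4, each time up, and Dnmt1, Uhrf1, Tet1 and Tet3 at none. The Mtf2 null and Jarid2 null series share the WT pattern of Dnmt3b, with steps of 1.43 ± 0.11, −1.95 ± 0.11 and 1.67 ± 0.11 in Mtf2 null mesoderm and 1.26 ± 0.11, −2.13 ± 0.12 and 2.21 ± 0.12 in Jarid2 null mesoderm. All genes were called at 6.06%, 5.73% and 3.41% in the Mtf2 null mesoderm steps (3.27%, 2.72% and 3.84% in endoderm) and at 5.40%, 10.4% and 7.79% in the Jarid2 null mesoderm steps (3.53%, 3.73% and 3.03% in endoderm).

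**Figure D1:**
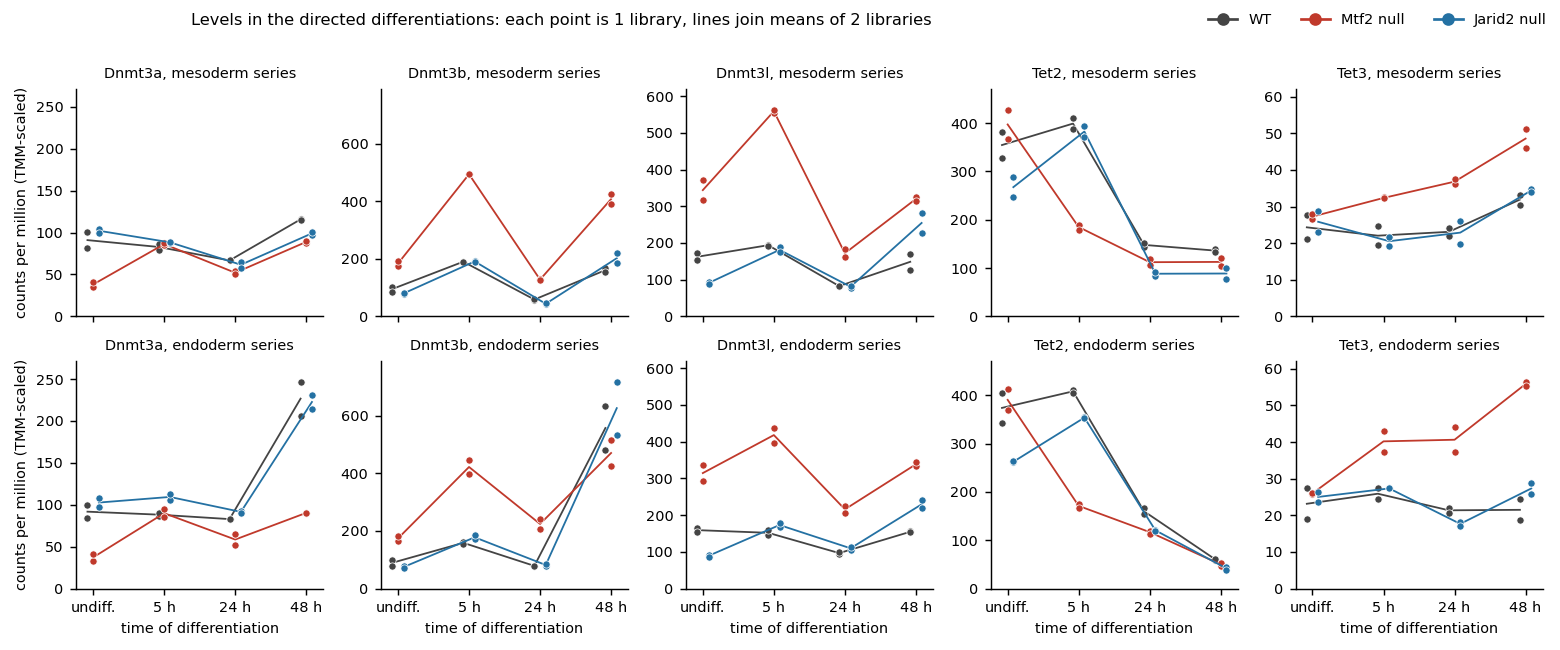
CPM (TMM-scaled, vertical axis from 0) of Dnmt3a, Dnmt3b, Dnmt3l, Tet2 and Tet3 against time in the mesoderm (top) and endoderm (bottom) series. Points are single libraries, 2 per group, in WT (grey), Mtf2 null (red) and Jarid2 null (blue), and lines join group means. Dnmt3l in Mtf2 null lies above both other genotypes at all 4 times, and Dnmt3a in Mtf2 null is lowest when undifferentiated and at 48 h of the endoderm series.

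In Mtf2 null cells of the directed series, the de novo arm was altered against the E14-labelled WT at every time. Dnmt3l was called higher in 7 of 8 comparisons and Dnmt3b in 5, but not at 48 h of the endoderm series (−0.24 on the log2 scale). Dnmt3a was called lower when undifferentiated in both series and at 48 h of the endoderm series, and Tet2 at 5 h in both, while Dnmt1, Uhrf1 and Tet1 were not called at any time. Of 64 tests of a member, 18 were called, with Tet3 at 48 h of the endoderm series as the remaining one, up. By time, 2, 3, 2 and 2 of the 8 members were called in the mesoderm series (undifferentiated, 5, 24 and 48 h), beside 11.1%, 7.56%, 5.72% and 6.82% of all genes, and 1, 3, 2 and 3 in the endoderm series, beside 11.0%, 7.61%, 6.58% and 10.5%.

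Dnmt3l, the stimulator of de novo methylation, stood in undifferentiated Mtf2 null cells at 316 and 372 CPM against 171 and 153 in WT of the mesoderm series. At 5 h the libraries gave 554 and 563 against 195 and 193 CPM, at 24 h 161 and 182 against 81.8 and 83.1, and at 48 h 326 and 314 against 170.3 and 127. The lowest Mtf2 null library exceeded the highest WT library at every time. The log2 fold changes were 1.08 ± 0.13, 1.53 ± 0.13, 1.06 ± 0.14 and 1.10 ± 0.13, all called (edgeR quasi-likelihood, adjusted p = 2.0e-06, 3.4e-08, 6.6e-06 and 2.6e-06). Those near the fold limit went under it without 1 library, at 0.95 without Mtf2 null undifferentiated replicate 2, 0.97 without Mtf2 null 24 h replicate 2 and 0.91 without WT 48 h replicate 2. In the endoderm series the differences were 0.98 ± 0.10, 1.46 ± 0.10, 1.16 ± 0.10 and 1.13 ± 0.10, of which the first missed the fold limit. A fit of the undifferentiated libraries of both series together, which are not independent, gave 1.04 ± 0.08 (edgeR quasi-likelihood, adjusted p = 3.2e-08, 16655 genes, 14.7% called). It fell under the fold limit without any 1 of 4 libraries (Mtf2 null replicate 2 of either series, mesoderm WT replicate 2 and endoderm WT replicate 1), at 0.94 to 0.99. The change of the Mtf2 null effect from undifferentiated to 48 h was called for 0 members in the mesoderm series by edgeR (2.71% of genes) and by DESeq2, with 4 members at an unadjusted p under 0.05 in edgeR. A short stretch of Dnmt3l exon, 67 bases, lies on the other strand of Aire, and the counting's strand setting is not given in the sources used here.

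Dnmt3b was at 173 and 194 CPM in undifferentiated Mtf2 null cells, 493 and 495 at 5 h, 129 and 127 at 24 h and 391 and 424 at 48 h of the mesoderm series, above both WT libraries at each time. Its log2 fold changes were 0.95 ± 0.11, 1.38 ± 0.11, 1.13 ± 0.11 and 1.34 ± 0.11, and the last 3 were called (edgeR quasi-likelihood, adjusted p = 9.5e-09, 2.9e-07 and 1.3e-08). In the endoderm series it was likewise called at 5 h (1.41 ± 0.15) and 24 h (1.51 ± 0.16). At 48 h of that series the order no longer held, with 426 and 516 CPM in Mtf2 null, 633 and 483 in WT and a difference of −0.24 ± 0.15. The change of the genotype effect from undifferentiated to 48 h was −1.21 ± 0.21 (edgeR quasi-likelihood interaction, adjusted p = 0.00034, 5.24% of genes called), and lost its call without any 1 of 5 libraries, at −1.01 to −1.29 with adjusted p = 0.0011 to 0.0042 in the same test. Dnmt3c, a near copy of Dnmt3b, could share reads with it.

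Dnmt3a showed the opposite direction. It stood at 35.01 and 41.2 CPM in undifferentiated Mtf2 null cells against 100.3 and 81.7 in WT of the mesoderm series, and at 33.5 and 40.9 against 99.2 and 84.3 in the endoderm series. The groups did not overlap, and the log2 fold changes were −1.26 ± 0.11 and −1.30 ± 0.13 (edgeR quasi-likelihood, adjusted p = 1.8e-08 and 4.3e-08). At 5 h the difference was 0.06 ± 0.10, with 85.3 and 87.1 CPM in Mtf2 null against 79.3 and 86.4 in WT. The step from undifferentiated to 5 h was 1.18 ± 0.11 within Mtf2 null cells (called) and −0.14 ± 0.10 within WT, and the difference of these steps was not tested. At 48 h the difference was −0.38 ± 0.10 in the mesoderm series, not called. In the endoderm series Mtf2 null gave 90.5 and 90.1 CPM against 247 and 206 in WT, a fall of 1.33 ± 0.12 on the log2 scale (edgeR quasi-likelihood, adjusted p = 1.3e-08). In the same Mtf2 null libraries the formative markers other than Dnmt3b summed to 52.7 to 75.5 CPM against 120 to 162 in WT and the naive markers to 940.4 to 964 CPM against 551 to 564. Their part in the result was not tested. An antisense gene, Dnmt3aos, overlaps Dnmt3a exons by 133 bases, so its reads could be included.

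Among the dioxygenases, Tet2 was lower in Mtf2 null than in WT cells at 5 h. Before differentiation it stood at 428 and 366 CPM against 381 and 328 in WT of the mesoderm series. At 5 h it stood at 190.2 and 179.8 CPM against 388 and 411. The log2 fold changes at 5 h were −1.11 ± 0.13 in the mesoderm and −1.25 ± 0.10 in the endoderm series (edgeR quasi-likelihood, adjusted p = 1.6e-06 and 5.8e-09). Within Mtf2 null cells of the mesoderm series the called fall came between undifferentiated and 5 h (−1.10 ± 0.13, and −0.98 without Mtf2 null undifferentiated replicate 1), and within WT and Jarid2 null cells between 5 and 24 h (−1.43 ± 0.13 and −2.12 ± 0.13).

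Tet3 differed by 0.56 to 0.67 on the log2 scale at 5, 24 and 48 h of the mesoderm series, with all Mtf2 null libraries above WT and no call. In the endoderm series the gap widened from 0.17 when undifferentiated to 0.63 ± 0.14, 0.93 ± 0.14 and 1.37 ± 0.15. At 48 h Mtf2 null gave 56.5 and 55.2 CPM against 24.3 and 18.7 in WT (edgeR quasi-likelihood, adjusted p = 1.5e-07). The change of the effect from undifferentiated to 48 h was 1.21 ± 0.21 (edgeR quasi-likelihood interaction, adjusted p = 0.00026) and lost its call without any 1 of 6 libraries, at 0.90 to 1.22. In these Mtf2 null libraries 4 measured primitive and visceral endoderm markers summed to 192 to 222 CPM against 10.5 to 12.4 CPM in WT, and the 4 measured definitive endoderm markers to 60.5 to 70.3 CPM. Their part in the result was not tested. In bulk samples, a change in RNA per cell and a change in the share of a cell type cannot be told apart. Tet1 stood at 1382 and 1128 CPM in undifferentiated Mtf2 null cells against 850 and 665 CPM in WT, a difference of 0.73 ± 0.14 that was short of the fold limit.

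**Figure D2:**
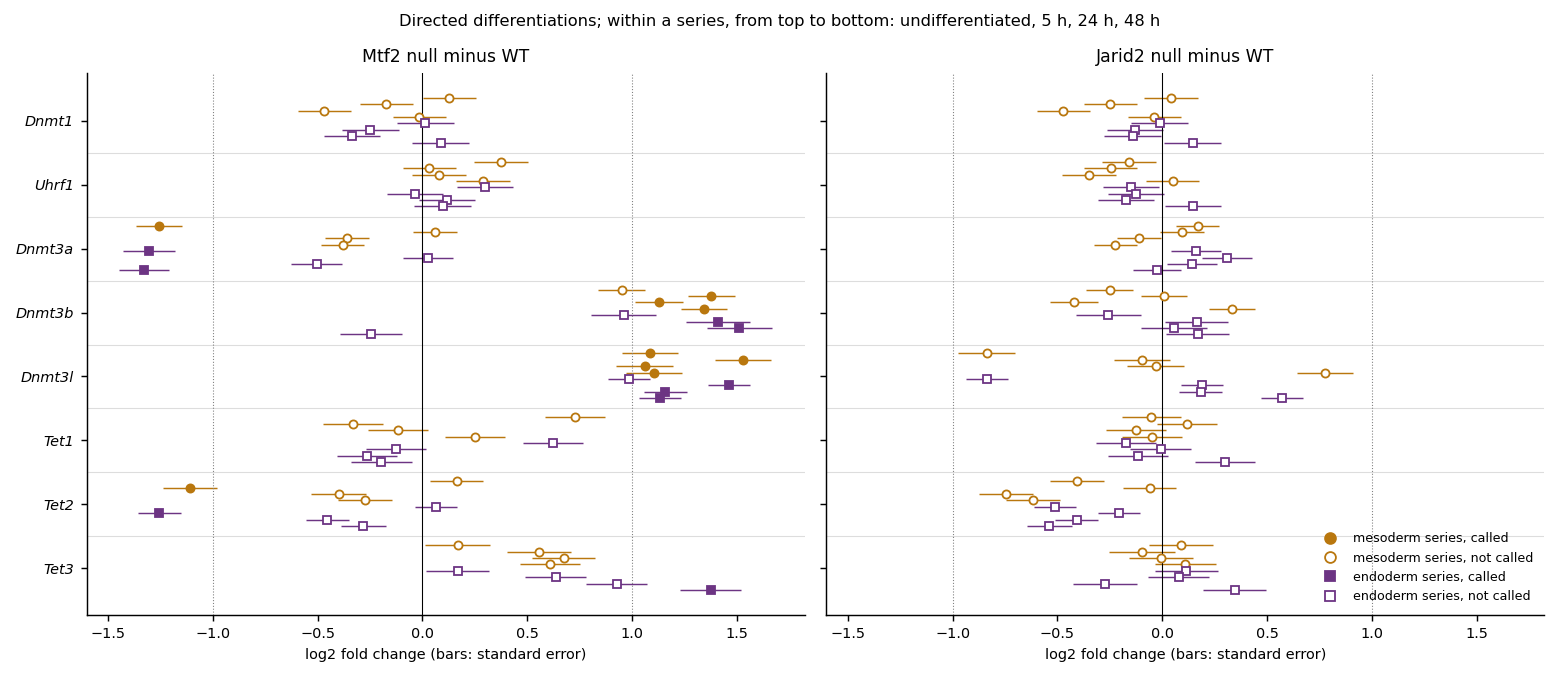
Log2 fold change of each gene against WT (horizontal axis, bars are standard errors) in Mtf2 null (left) and Jarid2 null (right). Each gene has 8 points, from top to bottom undifferentiated, 5, 24 and 48 h of the mesoderm series (circles) and then of the endoderm series (squares), and filled points were called. In Mtf2 null, Dnmt3l and Dnmt3b lie right of 0 except Dnmt3b at 48 h of the endoderm series, and no point is filled for Jarid2 null.

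In Jarid2 null cells, 0 members were called in the edgeR quasi-likelihood test against WT at any of the 4 times of either series, where 0.370%, 0%, 1.97% and 0.169% of genes were called in the mesoderm series and 0.742%, 0.0363%, 0.0312% and 0.125% in the endoderm series. DESeq2 also called 0. In a joint fit of the undifferentiated libraries of both series, 1.15% of genes and 0 members were called, with 3 members at an unadjusted p under 0.05 in edgeR. In the separate series, at an unadjusted p under 0.05, 11 of 32 tests passed in the mesoderm series and 8 of 32 in the endoderm series. The share of all genes at an unadjusted p under 0.05 was not computed, here or for other such counts. The clearest pattern in these directed series was a change of sign of Dnmt3l. Undifferentiated Jarid2 null cells had 92.9 and 88.7 CPM against 171 and 153 in WT of the mesoderm series (log2 difference −0.84 ± 0.14), whereas at 48 h they had 226 and 283 against 170.3 and 127 (0.77 ± 0.13). In the endoderm series the values were 91.5 and 86.7 against 165 and 154 CPM (−0.84 ± 0.10), and 218 and 240.2 against 156 and 153 at 48 h (0.57 ± 0.10). No library of one genotype overlapped with the other in these 4 groups. The change of the effect itself was 1.61 ± 0.19 and 1.41 ± 0.14 (edgeR quasi-likelihood interaction, adjusted p = 0.00023 and 1.1e-05), called for 1 member in each series beside 0.0545% and 0.514% of genes. The mesoderm value lost its call without any 1 of 5 libraries, at 1.41 to 1.65 with adjusted p = 0.0011 to 0.0017 in the same test.

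Tet2 lay lower in Jarid2 null than in WT at several times without a call, by log2 differences of −0.75 ± 0.13 at 24 h and −0.62 ± 0.13 at 48 h of the mesoderm series and −0.51 ± 0.10 undifferentiated and −0.54 ± 0.11 at 48 h of the endoderm series. Jarid2 null Tet2 was 84.4 and 92.2 CPM against 143 and 153 at 24 h of mesoderm treatment. Dnmt3a, Tet1, Tet3 and Uhrf1 differed from WT by −0.35 to 0.34 on the log2 scale over all 8 comparisons, Dnmt1 by −0.47 to 0.15 and Dnmt3b by −0.42 to 0.33, none of them called.

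The bulk EBs set each line beside the WT line of its own background and followed it for a week. In the 3 WT lines together, Tet1, Tet2 and Dnmt3l fell and Tet3 rose between days 2 and 4. Log2 CPM with a prior count of 2 was tested with limma over 15837 genes, with line or day as a block and a call at adjusted p under 0.05. From day 2 to day 4, 6 of 8 members were called, beside 25.6% of genes, and 0 from day 0 to 2 and from day 4 to 7 (10.8% and 0.133% of genes), where limma gave 2 and 4 members an unadjusted p under 0.05.

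Tet2 stood at 308, 257 and 268 CPM at day 2 in J1, JM8 and Pcl1-3 WT and at 36.5, 43.3 and 68.9 CPM at day 4, a log2 fold change of −2.53 ± 0.25 (limma, adjusted p = 0.00055). Tet1 went from 1600, 999 and 976 CPM to 170.2, 214 and 489 CPM (−2.15 ± 0.41, limma adjusted p = 0.0071), and Dnmt3l from 215, 226 and 208 to 14.0, 43.4 and 154 CPM (−2.24 ± 0.70, limma adjusted p = 0.042). All 3 lines moved down for each of these genes, J1 furthest and Pcl1-3 WT least. Uhrf1 changed by −0.77 ± 0.12 and Dnmt1 by −0.46 ± 0.13, while Tet3 rose by 1.13 ± 0.36, from 26.9, 20.5 and 16.6 CPM to 66.4, 40.6 and 36.1 CPM (limma, adjusted p = 0.0035, 0.030 and 0.047). The naive markers summed to 2615, 1499 and 2541 CPM at day 2 and 390, 661 and 1052 CPM at day 4 in the same samples. Only the Tet2 call was kept without JM8. Without J1 the Dnmt3l and Tet3 calls were lost, without Pcl1-3 WT that of Dnmt1. Dnmt3b, by contrast, was highest at days 2 and 4, at 82.4, 392.4, 335 and 57.7 CPM in J1 and 242, 555, 401 and 135 CPM in JM8, with 108, 199.5, 340.2 and 275 CPM in Pcl1-3 WT.

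In the libraries labelled Eed null, 2 of 8 members were called against J1, beside 10.9% of genes. Over days 0, 2, 4 and 7, Dnmt3l measured 637, 349, 311 and 124 CPM, and in J1 136, 215, 14.0 and 7.51 CPM, lower at each day. The difference was 2.85 ± 0.60 on the log2 scale (limma, adjusted p = 0.0061), 3.05 without day 0 (adjusted p = 0.016 in limma) and 2.31 without day 4 (adjusted p = 0.086 in limma), which ended the call. Tet3 stood at 119, 71.95, 126 and 263 CPM against 24.9, 26.9, 66.4 and 230.0 CPM, a difference of 1.19 ± 0.28 (limma, adjusted p = 0.011) that was 0.84 without day 0 and lost its call without day 2 or day 4. Tet2 differed by 0.92 ± 0.30 (limma, adjusted p = 0.053) and by 1.30 without day 0 (limma, adjusted p = 0.011). The fit without day 0 called 3 of 8 members, beside 9.28% of genes. The other 5 members lay between −0.24 (Dnmt1) and 0.20 (Dnmt3b), and between −0.16 (Dnmt1) and 0.38 (Tet1) without day 0, with no call. The naive markers of the same samples summed to 1972, 3221, 1109 and 633 CPM against 2373, 2615, 390 and 252 CPM in J1, and the 7 feeder fibroblast markers (Col1a1, Col1a2, Col3a1, Dcn, Lum, Thy1 and Postn) to 72.4 against 21.7 CPM at day 0 and 892 against 5866 CPM at day 7. Their part in these results was not tested.

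In the libraries labelled Mtf2 null, Tet2 and Tet3 were called against Pcl1-3 WT, 2 of 8 beside 18.4% of genes. Tet2 stood at 503, 449.5, 147 and 221 CPM against 273, 268, 68.9 and 86.9 CPM, higher at all 4 days (1.02 ± 0.30, limma adjusted p = 0.023). Tet3 stood at 40.7, 30.02, 105 and 209.7 CPM against 35.2, 16.6, 36.1 and 54.99 CPM (1.13 ± 0.28, limma adjusted p = 0.0088). Without day 0 the differences were 1.06 and 1.44 (limma, adjusted p = 0.014 and 0.0017), beside 21.1% of genes called. However, the Tet2 call was lost without day 2, 4 or 7 and the Tet3 call without day 4 or 7. The primitive and visceral endoderm markers summed to 28.5, 30.4, 464 and 1872 CPM in these libraries and to at most 7.48 CPM in Pcl1-3 WT, and their part was not tested. Tet2 was thus higher against Pcl1-3 WT in bulk EBs, and lower against the E14-labelled WT at 5 h in monolayer and in the single-cell EBs of day 7 (14.1 against 41.9 UMI counts scaled in the way of CPM). Dnmt3l, Dnmt3b and Dnmt3a differed by 0.41 ± 0.60, −0.17 ± 0.35 and 0.30 ± 0.18, and Tet1, Dnmt1 and Uhrf1 by −0.27 ± 0.36, −0.10 ± 0.16 and 0.12 ± 0.14. None of these 6 was called, and without day 0 they lay between −0.45 (Tet1) and 0.54 (Dnmt3l), again with no call. At day 0 alone, Dnmt3l stood at 253 CPM under the Mtf2 null label against 249 in Pcl1-3 WT. Dnmt3b stood at 120 against 108 and Dnmt3a at 123 against 107. The differences of undifferentiated Mtf2 null cells from the E14-labelled WT were thus not seen here, on a day whose labels did not pass the check above. In the libraries labelled Jarid2 null, limma called 0 of 8 members against JM8, beside 14.8% of genes, with 0 at an unadjusted p under 0.05. The largest differences there were 0.54 ± 0.28 for Tet3, −0.47 ± 0.35 for Dnmt3b and −0.45 ± 0.60 for Dnmt3l, and the other 5 lay between −0.20 (Dnmt3a) and 0.43 (Tet2). Without day 0 limma again called 0, beside 18.2% of genes, with differences from −0.62 (Dnmt3l) to 0.58 (Tet2).

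**Figure D3:**
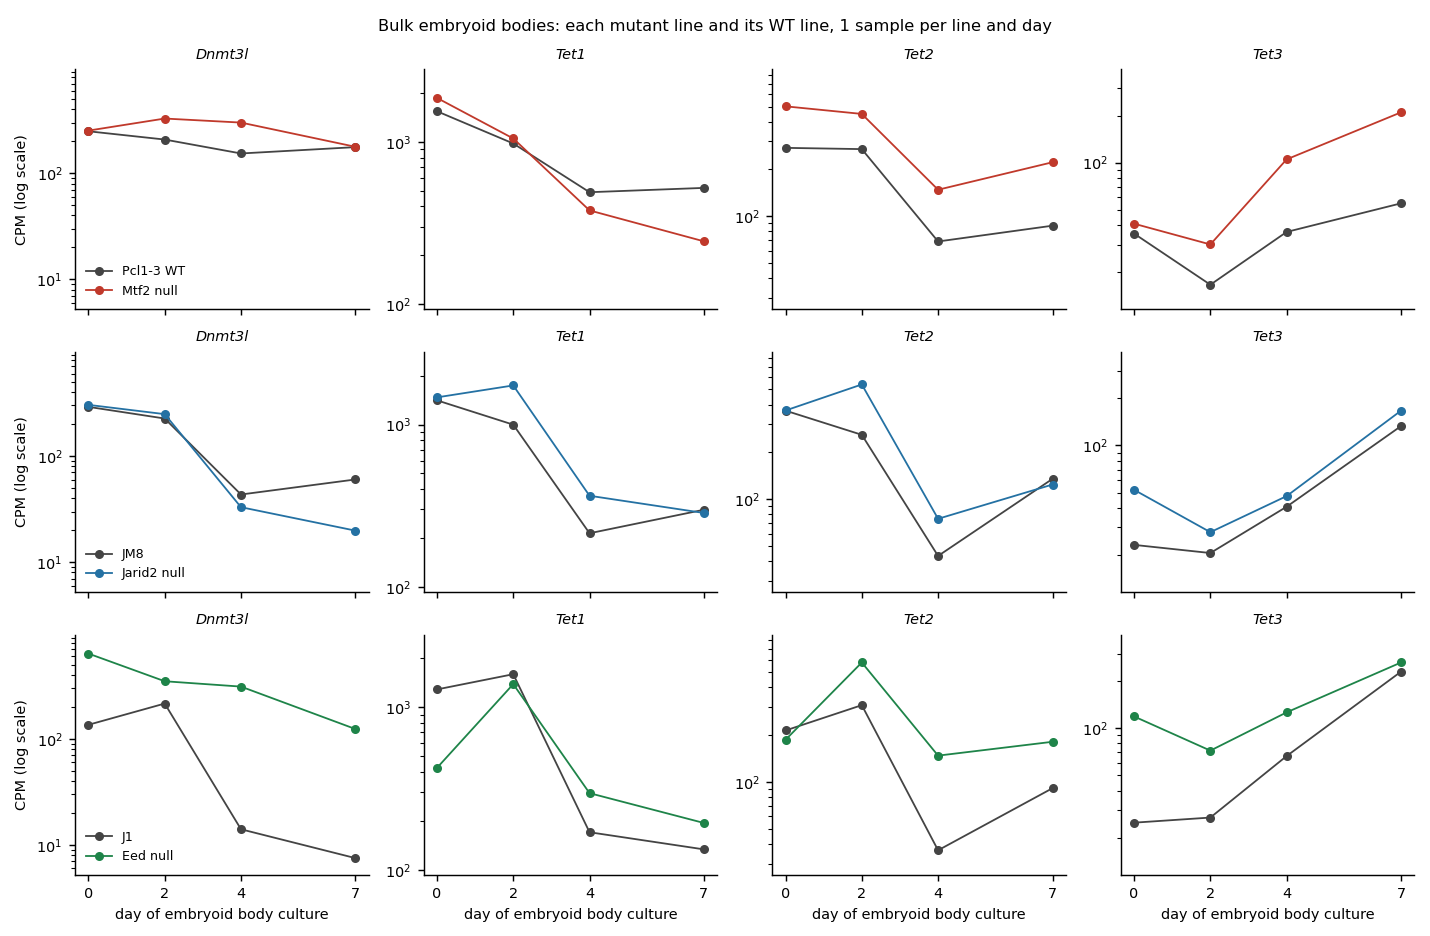
CPM on a log axis of Dnmt3l, Tet1, Tet2 and Tet3 against day of EB culture, each labelled mutant line (colour) with its background-matched WT line (grey), 1 sample per point. Columns of day 0 are named mono and later ones eb. In the bottom row Dnmt3l of the libraries labelled Eed null stays above 100 CPM while J1 drops to 7.51 CPM.

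The single-cell EBs gave the levels of the 8 genes by genotype, day and cell cluster. UMIs are read at the 3′ end, so levels as UMI CPM, UMI counts scaled to the library total in the way of CPM, can be set side by side between genes. With 1 library per genotype and day there is no test, and the intervals are exact Poisson 95% intervals that cover counting error only. In WT at day 0, Tet1 was the most abundant at 1480 UMI CPM (1437 to 1525), followed by Dnmt3l at 337 (316 to 358), Dnmt3b at 320 (299.9 to 341), Dnmt1 at 286 (267 to 306) and Uhrf1 at 252 (234 to 271). The intervals of Dnmt3l and Dnmt3b overlapped, as did those of Dnmt3b and Dnmt1 and of Dnmt1 and Uhrf1. Tet2 stood at 134, Dnmt3a at 109 and Tet3 at 14.4. By day 10 the order had changed. Tet1 was at 195, Dnmt1 at 173, Dnmt3a at 137, and Dnmt3b (102), Uhrf1 (102) and Tet3 (98.0) were level, with Dnmt3l at 49.4 and Tet2 at 47.2.

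Tet1 was lower at day 4 than at day 0 in every genotype, at 304 in WT, 494 in Mtf2 null, 550 in Jarid2 null and 306 in Eed null, in UMI CPM. Tet3 was at 12.6 to 32.4 at day 0 and 86.4 to 210 at day 10 over the 4 genotypes. The highest Dnmt3b came at day 7 in all 4, at 580 in WT, 807 in Mtf2 null, 932 in Jarid2 null and 388 in Eed null, whose interval overlapped with that of its day 0 (370).

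A ratio over 2-fold against WT of the same day was found in 13 of 96 comparisons of a member, 9 higher and 4 lower, beside 17.9% of 139900 such comparisons over all genes with enough UMIs. None involved Dnmt1, Uhrf1, Dnmt3a or Tet1. Dnmt3l accounted for 6. In Eed null it stood at 1005 (972 to 1040), 890 (851 to 929), 345 (322 to 370) and 64.2 (51.3 to 79.3) UMI CPM at days 0, 4, 7 and 10, against 337, 186 (168 to 205), 51.3 (42.1 to 61.9) and 49.4 (38.4 to 62.5) in WT. The first 3 days were apart, by log2 ratios of 1.58, 2.26 and 2.75, and day 10 overlapped. Mtf2 null gave 509 (487 to 532), 406 (383 to 431), 66.1 and 44.4, above WT at days 0 and 4. Jarid2 null gave 111 (99.7 to 123) at day 0 and 155 (140 to 171) at day 4, and at day 10 only 6 UMIs in 264 cells, 3.46 UMI CPM (1.27 to 7.53), which is 3.84 log2 units under WT. The order Eed null, Mtf2 null, WT, Jarid2 null at day 0 had no overlapping intervals.

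Dnmt3b was lower in Eed null at day 4 (185 against 481 in WT, log2 ratio −1.38) and higher in Mtf2 null at day 10 (418 against 102, log2 ratio 2.03). Tet3 was higher in Eed null at days 0, 4 and 10, by log2 ratios of 1.17, 1.79 and 1.10, each with intervals apart. Tet2 was lower in Mtf2 null at day 7, at 14.1 (9.78 to 19.7) against 41.9 (33.7 to 51.6), and higher in Eed null at day 10, at 128 (109 to 148) against 47.2 (36.5 to 60.1). Dnmt3a in undifferentiated Mtf2 null cells was 64.01 (56.3 to 72.5) against 109 (97.5 to 122) in WT, short of 2-fold. The feeder fibroblast markers, which other mesenchymal cells also express, summed to 49.8 UMI CPM in Eed null against 3.01 in WT at day 0 and to 1774 against 1649 at day 10, and their part in the Tet3 values was not tested.

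**Figure D4:**
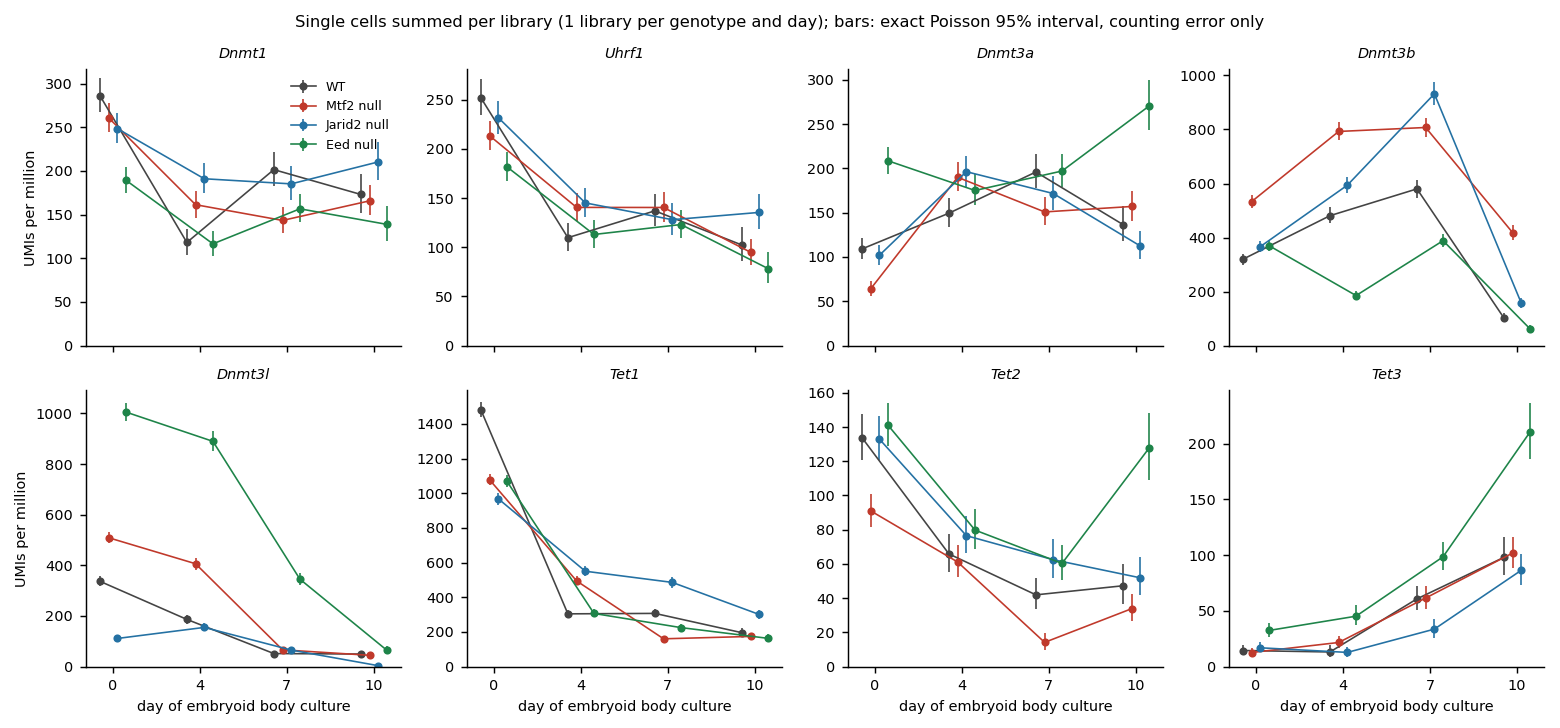
UMI CPM of the 8 genes (vertical axis from 0, scale differs by panel) against day of EB culture in WT (grey), Mtf2 null (red), Jarid2 null (blue) and Eed null (green), 1 library per point with exact Poisson 95% intervals. Dnmt3l in Eed null starts at 1005 and lies above the other genotypes through day 7, and Tet1 is highest at day 0 in every genotype.

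The authors' 22 clusters of the 4949 cells separated the genes further. Dnmt3l spanned the widest range, from 2.31 UMI CPM in cluster 18 (2 UMIs) to 1012 in cluster 6, and its highest 3 clusters, 6, 9 (992) and 10 (717), held almost only Eed null cells (303 of 303, 257 of 258 and 244 of 244). Dnmt3b spanned 82.0 (cluster 18) to 1731 (cluster 1, which holds cells of mainly days 4 and 7 from 4 genotypes). Tet1 spanned 70.4 (cluster 18) to 1499 (cluster 3, 311 of 335 cells WT), Tet2 13.9 to 152, and Tet3 7.52 (cluster 5) to 189 (cluster 13, 197 of 226 cells Eed null). Dnmt1 (103 to 286) and Uhrf1 (75.7 to 250) varied least. Dnmt3a was lowest in cluster 0, at 48.7, where 334 of 386 cells were Mtf2 null and 350 came from day 0, and highest in cluster 1, at 283.

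Levels across the 22 clusters went with marker lists in 3 groups, with Dnmt3b and Dnmt3a outside them. These are descriptions, since the clusters were made from the same cells and share libraries. Many clusters also hold mainly cells of 1 genotype, so cell state and line cannot be told apart. Tet1, Dnmt3l and Tet2 went with the summed naive markers (Spearman rho 0.89, 0.87 and 0.83), Uhrf1 and Dnmt1 with S phase genes (0.85 and 0.73) and with each other (0.71), and Tet3 with feeder fibroblast markers (0.90) and against Tet1 (−0.73). Dnmt3l also went with germline genes silenced by promoter DNA methylation (0.79) and against methyl-CpG reader genes (−0.85). Dnmt3b went with the formative markers other than itself at 0.56 and with neural ectoderm markers at 0.54, and both lists hold Otx2. Dnmt3a went with primitive streak and mesoderm markers at 0.56 and with the formative markers at 0.51.

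Where a cluster held at least 20 cells of both Mtf2 null and Jarid2 null, Dnmt3l was higher in the Mtf2 null cells in 9 of 9 clusters, with intervals apart in 5. In cluster 0 it stood at 495.5 (473 to 519) against 42.6 (22.7 to 72.9) UMI CPM, in cluster 2 at 451 against 109, in cluster 5 at 688 against 136, in cluster 1 at 164 against 18.4 and in cluster 17 at 454 against 42.5. Dnmt3b was higher in the Mtf2 null cells in 8 of 9, with intervals apart in 6, and lower, also with intervals apart, in cluster 1 (1717 against 1919). Dnmt1 was lower in 9 of 9 with no intervals apart, and the other members showed no shared direction. Beside WT cells the Dnmt3l differences within clusters were weaker. In Mtf2 null it was higher than in WT in 3 of 4 clusters and lower in 1, with intervals apart in 1. In Jarid2 null it was lower than in WT in 3 of 3 clusters, with intervals apart in 0. The difference of Dnmt3l between Mtf2 null and Jarid2 null was thus also seen among cells given the same cluster. Each library holds 1 genotype, so this is again a comparison between libraries and not separate evidence. Within a cluster the cells of a genotype still come from at most 4 libraries, and the mix of days can differ between genotypes. The same counts were not made over all genes, so it is not known whether those of the members are unusual.

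**Figure D5:**
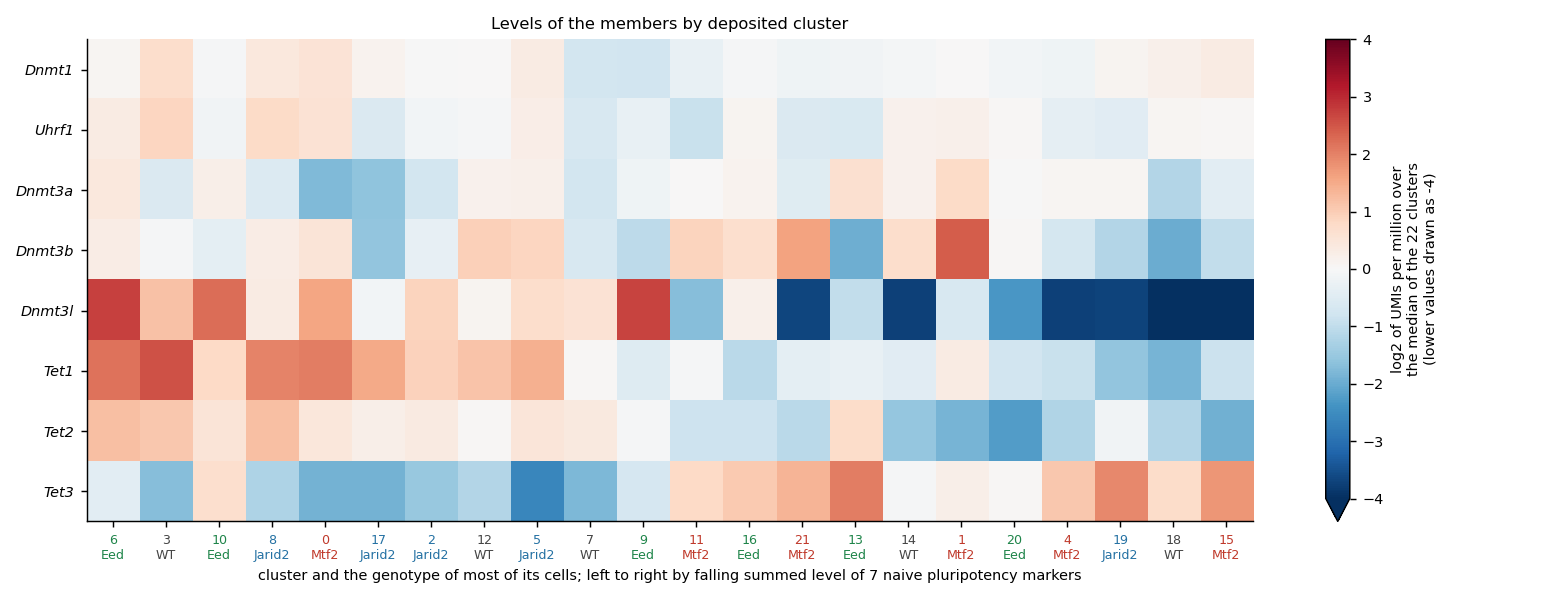
Heat map of the 8 genes (rows) in the authors' 22 clusters (columns, with the genotype of most cells), ordered from left to right by falling summed level of 7 naive markers. Colour is the log2 of UMI CPM over the gene's median across clusters, and values under −4 are drawn as −4. Tet1, Tet2 and Dnmt3l are high at the left, Tet3 at the right, and Dnmt1 and Uhrf1 change little.

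The wider pathway was read from 4 lists, given by counts of called genes over those tested and by the median over the list. Among 12 tested partners of maintenance and de novo methylation, 2 to 3 rose and 0 to 1 fell in Mtf2 null cells at each time, with list medians of −0.17 to 0.17 against −0.05 to 0.01 over all genes. At the same times 11.1%, 7.56%, 5.72% and 6.82% of all genes were called in the mesoderm series and 11.0%, 7.61%, 6.58% and 10.5% in the endoderm series, and these shares apply to the other Mtf2 null lists as well. Ahcy, which clears the by-product of methyl transfer, was called up at all 8 comparisons, from 3.79 to 5.22 on the log2 scale, and Dppa3, which displaces UHRF1 from chromatin, from 2.32 to 5.71. Prdm14, a naive factor that represses de novo methyltransferases, fell at 5 h by 1.65 in the mesoderm and 1.17 in the endoderm series and rose at 48 h of the endoderm series by 1.49. Mat2a, which makes the methyl donor, fell in undifferentiated cells by 1.04 and 1.11 in the 2 series. Hells, a remodeller needed for methylation of repeats, fell once, by 1.05 at 48 h of the endoderm series. In EBs Ahcy was lower under the Mtf2 null label (log2 difference from Pcl1-3 WT −2.85, and −2.62 without day 0) and under the Jarid2 null label (−3.69 from JM8, and −4.51 without day 0), the opposite direction to that against the E14-labelled WT. Near copies of Ahcy elsewhere in the genome could share its reads. Among 7 methyl-CpG readers, edgeR called 0 in the 8 Mtf2 null comparisons, with an unadjusted p under 0.05 in 29 of 56 tests. Among genes of oxidised-base repair and TET partners, of which 10 were tested in the mesoderm and 11 in the endoderm series, 1 to 3 rose and 0 fell, led by Gadd45a (2.08 in undifferentiated cells of the mesoderm series) and Tdg, the glycosylase that removes oxidised methylcytosine (1.23 at 5 h of both series). In Jarid2 null cells the only calls in the 4 lists against WT at the 8 time points were Gadd45b (2.17) and Gadd45a (1.13) at 24 h and Gadd45b (1.57) at 48 h of the mesoderm series, where 1.97% and 0.169% of all genes were called.

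The last list holds germline genes whose promoters DNA methylation is known to silence. Of 9 tested, 0 rose and 2 fell at 48 h in Mtf2 null mesoderm (list median −0.84) and 0 rose and 4 fell at 48 h in the endoderm series (median −0.91), beside 562 of 18361 and 803 of 19261 genes that fell, led by Sycp3, a component of the meiotic chromosome axis, at −2.50 in the mesoderm and −2.64 in the endoderm series, and Hormad1 at −2.37 and −1.96. At the earlier times Sycp1, of the synaptonemal complex, was the only one to rise, by 2.27 to 3.09 on the log2 scale where called. In the libraries labelled Eed null, 5 of 11 rose against J1 and 0 fell (median 1.82 against −0.003 over all genes), beside 10.9% of all genes called, 874 of 15837 up and 857 down. The members of the list that rose were led by Slc25a31 at 3.39, Mael at 2.20, Taf7l at 1.96 and Brdt at 1.82. Without day 0, left out for these lists after seeing the data, the counts were 7 and 0 of 11, beside 841 genes up and 628 down. In the same setting 3 of 11 rose and 0 fell under the Mtf2 null label against Pcl1-3 WT (median 0.87). All genes gave 1927 up and 1418 down there. This direction is opposite to that of Mtf2 null against the E14-labelled WT at 48 h. The list summed to 185, 342 and 539 UMI CPM in clusters 6, 9 and 10, the highest 3 in Dnmt3l, where that gene stood at 1012, 992 and 717. In clusters 7 and 12, mainly WT (278 of 292 and 208 of 228 cells), it summed to 320 and 258, with Dnmt3l at 226 and 163. Over days 0, 4, 7 and 10 the list stood at 192, 360, 370 and 166 UMI CPM in Eed null. In WT it stood at 85.3, 314, 91.3 and 85.8.

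The genes most like each member were taken as the 3 with the highest lower value of Pearson's r of log2 CPM over the 24 libraries of each series, among 18017 genes. Dnmt3b was closest to Pim2 (0.897 in mesoderm and 0.963 in endoderm), Dnmt3l to Sh3bp4 (0.891 and 0.888) and Fgfr2 (0.887 and 0.912), Tet1 to Dppa2 (0.825 and 0.890), Tet2 to Cdc5l (0.926 and 0.942) and Khdc3 (0.905 and 0.952), Tet3 to Adora1 (0.873 and 0.904), Dnmt1 to Eloa (0.935 and 0.897), Uhrf1 to Eif4g1 (0.909 and 0.904) and Dnmt3a to Cdhr1 (0.786 and 0.791). Among members, Dnmt3b and Dnmt3l reached 0.922 in the mesoderm and 0.711 in the endoderm series, Dnmt1 and Uhrf1 0.850 and 0.720, and Tet1 and Tet2 0.871 and 0.452. The libraries share their group structure, so these values describe likeness over genotypes and times only.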

How the data were processed

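The deposited directed tables hold estimated counts per gene that the authors made with Bowtie2 alignment to GRCm38 and Salmon (versions not given in the sources used here). The deposited bulk EB table holds a size-factor-scaled count signal that the authors computed with DESeq2, in 46 columns. Whole reads were recovered for 45 of them (tolerance 0.02) and added over the columns of the same line and day. The remaining column was left out of the tests on reads. The deposited single-cell table holds UMI counts per cell, with the authors' clusters. The endoderm columns of the Jarid2 null 48 h libraries are named 28h and were matched by library number.

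Estimated counts were rounded and tested with edgeR 4.0.16 (TMM, filterByExpr with a minimum count of 10, quasi-likelihood test, Benjamini-Hochberg adjustment over all genes) in R 4.3.3, at the study's limits of 0.001 and 2-fold. EB reads were tested with limma 3.58.1 on log2 CPM (prior count 2, at least 1 CPM in 4 samples, adjusted p under 0.05). Single-cell counts were summed per library and per cluster, with all deposited cells kept and doublets not called. Alternatives were DESeq2 1.42.0, other scalings, filters and thresholds, a replicate block and leaving out single libraries. Only the directed and bulk EB test functions were run on simulated counts, for a single comparison each. Of 200 genes given a log2 change of 1.5, 60.5% were called for undifferentiated Mtf2 null against WT of the mesoderm series. For the Eed null label against J1, 44.5% were called. At a log2 change of 2, 80% were called in each. Unchanged genes called at changes of 1.5 and 2 numbered 0 and 0 in the mesoderm comparison and 4 and 8 in the bulk EB comparison. The simulated counts had a fixed spread and no effects of time, day or line, so these rates hold for those settings only. The rule for naming took all 8 members, by value or within a range, list genes when called, largest first and at most 4 per list, and the 3 genes most like each member. Gene lists and members were chosen with earlier results of these data known. Within a series the numbers of the duplicates did not pair libraries, with correlations of deviations from −0.39 to 0.50, while across series undifferentiated libraries of the same number were closer (0.52 to 0.63). Intervals cover counting error only.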

Additional observations from a re-analysis of the deposited data

Results flagged for a closer look

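The effect of genotype on 3 members changed between undifferentiated cells and 48 h by a test of the change itself (edgeR quasi-likelihood interaction, Benjamini-Hochberg adjustment). Dnmt3l in Jarid2 null changed by 1.61 on the log2 scale in the mesoderm series and by 1.41 in the endoderm series, from below WT to above it. EBs did not show this order. Under the Jarid2 null label Dnmt3l stood at 304 against 291 CPM in JM8 at bulk day 0 and at 19.8 against 60.2 CPM at day 7. In single cells it was also below WT at day 10. In Mtf2 null of the endoderm series, Dnmt3b changed by −1.21 and Tet3 by 1.21.

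Of 24 groups of 4 undifferentiated libraries examined for a sample far from the others, 1 stood out, where chance flags about 1 in 20. Tet1 in Jarid2 null stood at 744 CPM in mesoderm replicate 2 and at 693 to 695 CPM in the other 3 libraries, a gap of 0.966 of the range, above the limit for 4 samples. That limit and rate assume independent samples, and these 4 libraries are 2 pairs of the same replicate number that were closer across series, so they are not independent.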

How the results depend on the processing

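No called member changed direction under the alternatives run. All 58 member calls of the directed series held with DESeq2 and with its size factors. With the replicate number as a block, 55 of 56 calls held, and that of Dnmt3b at 5 h in WT mesoderm went to 0.9995 on the log2 scale. Leaving out 1 library, day or line kept 241 of 290 calls.

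With no fold limit, the calls of members at adjusted p under 0.001 and under 0.05 were, in the mesoderm series, 2 and 6 for Jarid2 null against WT, 1 and 1 for the change of the Mtf2 null effect, and 9 and 13, 12 and 17, and 12 and 17 for the steps of WT, Mtf2 null and Jarid2 null. In the endoderm series they were 1 and 4 for Jarid2 null against WT, and 9 and 12 and 11 and 18 for the steps of WT and Mtf2 null. Over both series undifferentiated the member calls were 4 and 5 for Mtf2 null, beside 30.6% and 54.5% of genes. For Jarid2 null they were 1 and 3, beside 3.91% and 20.4% of genes. At 0.05 they were 19 and 17 for Mtf2 null against WT in mesoderm and endoderm and 18 for the Jarid2 null endoderm steps. All genes were called at 0.0% to 30.6% and at 0.151% to 54.5% under these limits over 40 comparisons. The joint Mtf2 null count was 1 with no filter. In EBs, the counts for Mtf2 null and for Eed null labels were 0 with no day block and 1 in a fit of 8 samples, an alternative chosen after seeing the data, and those of the WT lines were 3 with no filter and 3 with no line block.

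Leaving out 1 library gave 8 to 10 calls for Mtf2 null against WT in mesoderm, 0 to 1 for the change of its effect and of that of Jarid2 null, 0 to 0 for Jarid2 null, and 4 to 7, 5 to 7 and 6 to 8 for the WT, Mtf2 null and Jarid2 null steps. In endoderm it gave 9 to 11, 0 to 2 and 1 to 1 for those changes, 0 to 0, and 4 to 6, 4 to 6 and 6 to 8. The joint counts were 1 to 3 and 0 to 0. Leaving out a day or line in EBs gave 0 to 2, 0 to 0 and 0 to 3 for the Mtf2, Jarid2 and Eed null labels and 1 to 8 for the WT lines.

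Depth limits low counts in single cells, such as 6 UMIs of Dnmt3l in Jarid2 null at day 10 and 28 of Tet3 in WT at day 4. Each mutant is 1 line, technical duplicates carry no spread between cultures, and neither protein nor DNA methylation was analysed here.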
